A study of Mus musculus with 32 samples.

Results

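The MHC class II antigen presentation genes described here are *Ciita*, *H2-Aa*, *H2-Ab1*, *H2-Eb1*, *Cd74*, *H2-DMa*, *H2-DMb1* and *Cd86*, which were taken by their symbols from a table of 54532 genes and make up 8 of them. Their reads were counted in the livers of 32 mice, in 8 groups of 4 by sex, genotype and diet. WT and *Cyp2c70* KO mice of the C57BL/6 strain were fed chow or chow holding 0.006% SC-435, about 11 mg/kg/day, and were 12 weeks old at sacrifice. The labels start SC-435 later after weaning than the study's methods do, so the length of treatment is in doubt. SC-435 blocks the ileal bile acid transporter, which returns bile acids from the gut to the liver. The KO line descends from 1 CRISPR-Cas9 founder with a deletion of exon 2 of *Cyp2c70*, the enzyme that makes muricholic acids in mice, and is not restricted to the liver. The 8 groups were the female WT chow, female KO chow, female WT SC-435 and female KO SC-435 mice and the same 4 groups of males. The question for these genes is whether their level differed with genotype and whether SC-435 moved it.

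MHC class II molecules show peptides from engulfed proteins to CD4 T cells and are made mainly by dendritic cells, B cells and macrophages. The α and β chains pair in the endoplasmic reticulum with the invariant chain, whose remnant is later exchanged for a peptide by H2-DM, while CIITA drives transcription of the class II genes and CD86 gives T cells a costimulatory signal. In the liver, Kupffer cells and dendritic cells present antigen in this way.

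*H2-DMa*, *H2-DMb1*, *H2-Ab1*, *H2-Aa* and *H2-Eb1* lie on chromosome 17, at 34135182 to 34139101, 34153072 to 34160230, 34263209 to 34269418, 34282744 to 34287827 and 34305877 to 34316199 (mm10, as deposited). *Ciita* at 10480059 to 10528418 and *Cd86* at 36603869 to 36666081 lie on chromosome 16. RefSeq promoter windows (build GRCm38.p6, 250 bases before and 50 after a start site) were matched for 4 of the 8 genes, namely *H2-Aa*, *H2-Eb1*, *H2-DMb1* and *H2-DMa*. The stretches from 110 to 41 bases before the start are shown for 3 of them because class II promoters are known for an X box and, downstream of it, a Y box that holds a reversed CCAAT box. Capitals mark exact matches, on the strand of the gene, to the X box (AGCAACNG), the Y box (CTGATTGG) and the CCAAT box (ATTGG, which lies inside the Y box), and the positions are chr17:34287864-34287933 on the minus strand, chr17:34305757-34305826 on the plus strand and chr17:34153081-34153150 on the plus strand.
H2-Aa: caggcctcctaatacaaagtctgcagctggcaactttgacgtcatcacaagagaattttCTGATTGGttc
H2-Eb1: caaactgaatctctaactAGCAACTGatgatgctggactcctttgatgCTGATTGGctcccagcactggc
H2-DMb1: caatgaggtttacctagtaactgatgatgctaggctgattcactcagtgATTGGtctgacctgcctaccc

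In *H2-Aa* the Y box began 51 bases before the RefSeq start and in *H2-Eb1* 62 bases before it. *H2-DMb1* held the CCAAT box alone, 61 bases before its RefSeq start. The stretch shown for *H2-DMb1* lies inside the gene as deposited, which begins at 34153072, so it is upstream of the RefSeq start only. The X box letters were matched in *H2-Eb1* only, 92 bases before the start. Searched on both strands of the 250 upstream bases, the Y box was present in 3.83% of 32851 RefSeq windows, the CCAAT box in 33.8% and the X box in 4.14%. The letters of the X2 box (TGNGTCA) were present in 13.0% of windows and, among the 4 genes, only in 1 of the 2 windows of *H2-DMa*. That window, chr17:34125268-34125567, does not adjoin the start of *H2-DMa* as deposited, 34135182, so the match is not placed in the promoter of the gene as counted here. These are exact matches to a single set of letters per box, so a box with other letters would be missed. A gene without a match is therefore not shown to lack the box. The matches were not tested for binding.

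Library totals lay between 36476021 and 44771350 counts, with a median of 42232543. The counts of the 8 genes ran from 18 for *Cd86* in its lowest mouse to 17133 for *Cd74* in its highest, so every gene was measured in all 32 mice. Levels are given as CPM, counts scaled to library size after TMM normalization, or per kilobase of gene length as RPKM. The p values judge a difference between groups against the spread between mice. *Cyp2c70* itself was at 710 ± 107 CPM in female WT mice on chow against 163 ± 13.99 CPM in female KO mice, and at 621 ± 98.0 against 172 ± 15.3 CPM in males (SD, n = 4), so no library went against its genotype label. The 8 hepatocyte markers summed to between 54419 and 189276 CPM in the 32 livers. The highest of these sums was in male WT chow replicate 1, a library with a TMM factor of 0.639 against 0.955 to 1.01 in the other 3 mice of its group, and the comparisons with male WT mice on chow are given with and without it.

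Per kilobase, the class II genes held a fixed order of levels in the livers of female WT mice on chow. *Cd74*, the invariant chain, stood highest at 65.3 ± 19.6 RPKM (SD, n = 4 for all levels in this paragraph). The 3 chains followed, with *H2-Eb1* at 21.7 ± 6.39, *H2-Ab1* at 19.8 ± 6.38 and *H2-Aa* at 14.3 ± 3.74 RPKM, and their ranges overlapped each other but not that of *Cd74*. The DM subunits *H2-DMa* at 2.31 ± 0.646 and *H2-DMb1* at 2.30 ± 0.598 RPKM did not differ beyond their spread. *Cd86* at 0.788 ± 0.0810 RPKM and *Ciita* at 0.204 ± 0.0290 RPKM were lowest, without overlap with their neighbours. In female KO mice on chow the order was the same apart from the DM pair, from *Cd74* at 178 ± 62.4 RPKM through *H2-Eb1* at 72.4 ± 23.8, *H2-Ab1* at 55.8 ± 17.4 and *H2-Aa* at 44.6 ± 14.9 RPKM to *Ciita* at 0.724 ± 0.234 RPKM.

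**Figure D1:**
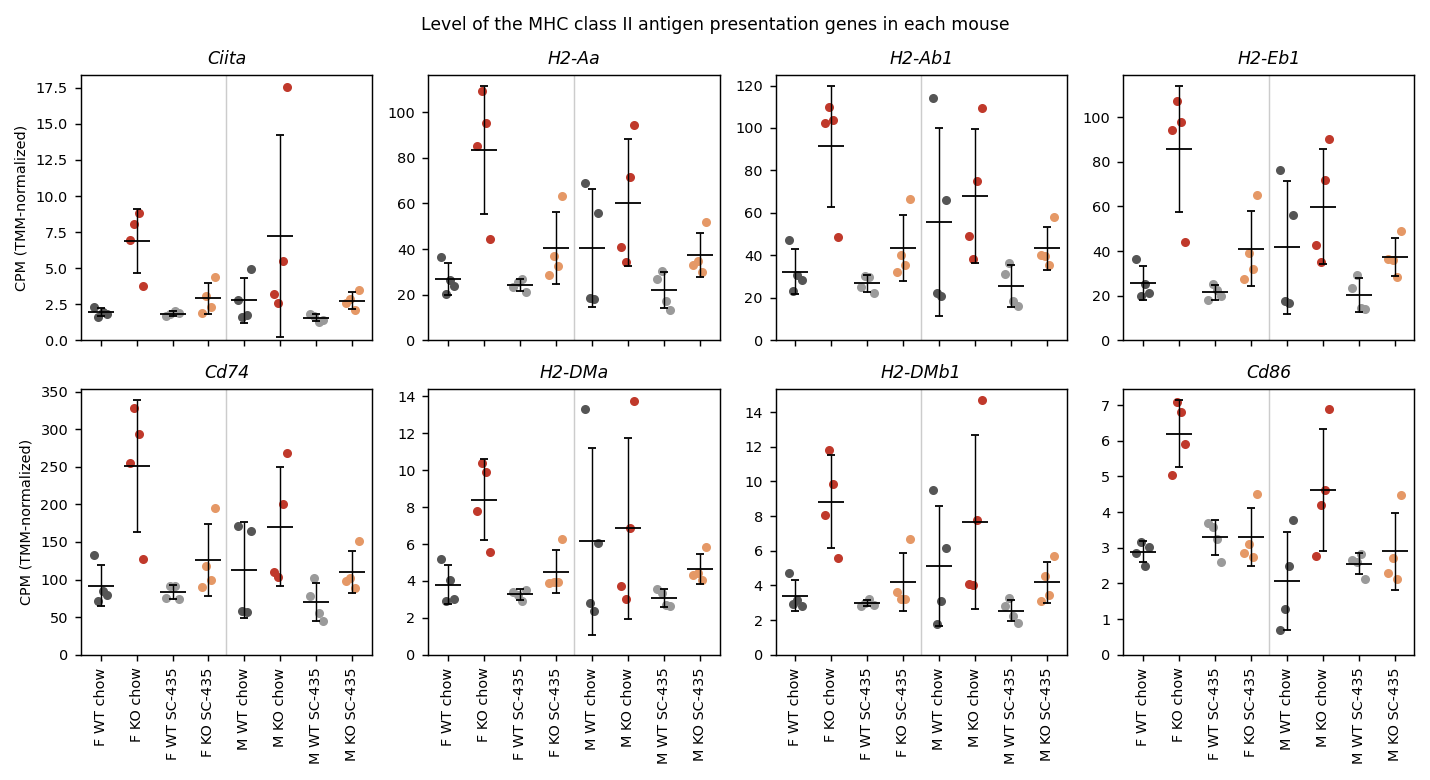
Level in CPM (vertical axis, from 0, TMM-normalized) of each of the 8 genes in each mouse, by sex (F, M), genotype and diet. Points are mice in order of replicate number, and the bar and whiskers are the mean and SD of 4 mice. For every gene but *Cd74* the 4 female KO mice on chow lie above the 4 female WT mice on chow, while the male KO and WT mice on chow overlap for all 8 genes, where 14.7% of all genes tested did not overlap in males.

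All 8 class II genes were higher in the livers of female *Cyp2c70* KO mice than in those of female WT mice on chow. The regulator *Ciita* rose most, by 3.56-fold in mean CPM, and *Cd86* least, by 2.15-fold. A gene was called when its adjusted p (edgeR quasi-likelihood test, Benjamini-Hochberg over all 16205 genes tested) was under 0.05 and its log2 fold change was beyond 1, and 8 of 8 were called higher where 5.67% of all genes tested were. The median log2 fold change of the 8 genes was 1.495, with a range from 1.13 to 1.86, beside -0.02 over all genes tested. In 7 of the 8 genes every KO mouse lay above every WT mouse in CPM, as was the case for 11.1% of all genes tested. In these bulk samples, fewer or more cells of a type and less or more RNA per cell cannot be told apart.

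*Ciita*, the transactivator of the class II genes, was at 2.31, 1.65, 1.97 and 1.84 CPM in female WT replicates 1 to 4 on chow and at 6.95, 8.07, 8.82 and 3.77 CPM in the knockouts in the same order. Every KO mouse lay above every WT mouse, and KO replicate 4 was the lowest of the KO mice. The log2 fold change of *Ciita* was 1.86 (standard error 0.26, edgeR adjusted p = 0.00232).

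Of the chains, *H2-Aa*, an α chain, was at 36.5, 20.2, 26.4 and 23.8 CPM in WT mice and at 85.0, 109, 95.4 and 44.3 CPM in KO mice, a log2 fold change of 1.67 (standard error 0.27, edgeR adjusted p = 0.0043). *H2-Ab1*, the β chain that pairs with it, was at 47.3, 23.1, 30.8 and 28.4 CPM against 102, 110, 104 and 48.9 CPM, a log2 fold change of 1.52 (standard error 0.28, edgeR adjusted p = 0.00729). *H2-Eb1*, the β chain of the second class II molecule, was at 36.6, 19.8, 25.2 and 21.4 CPM against 94.1, 107, 97.7 and 44.3 CPM, a log2 fold change of 1.76 (standard error 0.28, edgeR adjusted p = 0.00407). In all 3 chains the highest WT mouse was replicate 1 and the lowest KO mouse was replicate 4, and a gap remained between them that was narrow for *H2-Ab1*. *H2-Ea-ps*, annotated as the pseudogene of the partner α chain, had 0 counts in all 32 mice. A count of 0 does not show that no transcript was present, since an expected count of about 3 in a library can still give 0.

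*Cd74* (chromosome 18, 60803848 to 60812646), which encodes the invariant chain that occupies the groove of new class II molecules, was at 133, 71.7, 84.5 and 79.1 CPM in WT mice and at 255, 329, 293 and 127 CPM in KO mice. It was the 1 gene whose groups overlapped, since KO replicate 4 fell just below WT replicate 1. The log2 fold change was 1.47 (standard error 0.29, edgeR adjusted p = 0.00929). *H2-DMa*, the α subunit of the peptide exchange factor, was at 5.17, 2.91, 4.05 and 3.01 CPM against 7.77, 10.4, 9.88 and 5.59 CPM, a log2 fold change of 1.18 (standard error 0.24, edgeR adjusted p = 0.0110). *H2-DMb1*, a β subunit of the same factor, was at 4.72, 2.91, 3.17 and 2.84 CPM against 8.09, 11.8, 9.86 and 5.57 CPM, a log2 fold change of 1.40 (standard error 0.25, edgeR adjusted p = 0.00631). Both subunits again had KO replicate 4 lowest and WT replicate 1 highest. The paralog *H2-DMb2* had 2 to 98 counts per mouse beside 64 to 833 for *H2-DMb1*, and how reads that fit both were counted is not given in the sources used here.

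*Cd86*, the ligand of CD28 and CTLA-4 on T cells, was at 2.86, 3.17, 2.48 and 3.03 CPM in WT mice and at 5.03, 7.08, 6.80 and 5.91 CPM in KO mice. Here KO replicate 4 was not the lowest, and the groups were well apart. The log2 fold change was 1.13 (standard error 0.15, edgeR adjusted p = 0.00231). With each of the 8 mice left out in turn, and under 9 other settings of the analysis, 8 of 8 genes remained called, and the log2 fold changes lay between 1.06 and 2.09.

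**Figure D2:**
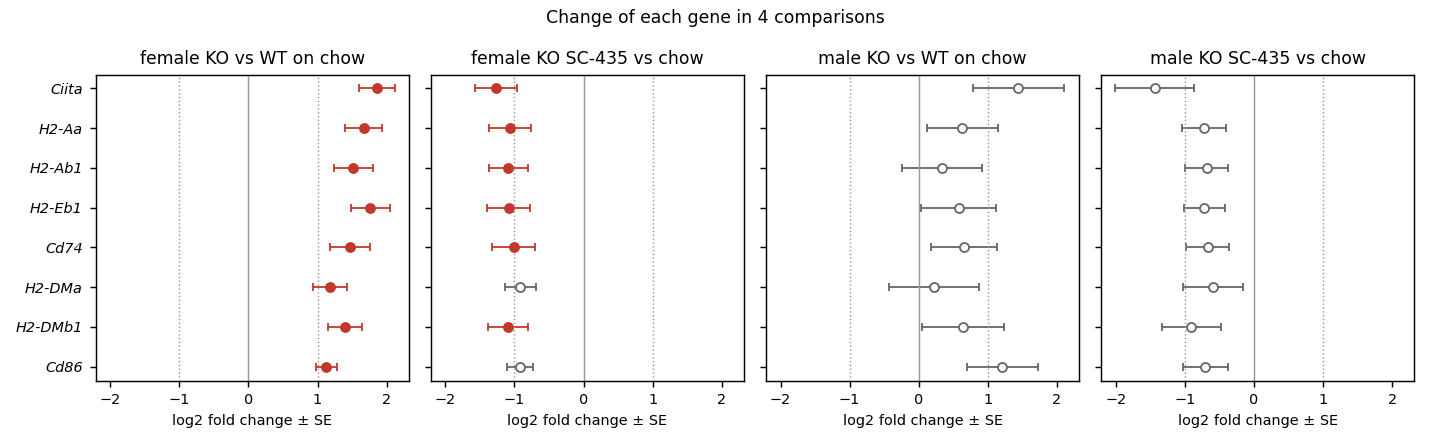
The log2 fold change (horizontal axis) of each gene with its standard error in 4 comparisons, each fitted on its 8 mice. Filled red points were called, and dotted lines mark -1 and 1. In females all 8 genes were called for genotype and 6 for SC-435, while in males no gene was called in either comparison.

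Of the other genes of the class II pathway a few rose in female KO mice. Of 20 such genes, 18 were tested and 4 were called higher, with a median log2 fold change of 0.37 beside -0.02 over all genes tested. *Lgmn*, a lysosomal protease that cuts antigens, had the smallest adjusted p at a log2 fold change of 0.79 (standard error 0.11, edgeR adjusted p = 0.00219), short of the fold threshold. *Cd83*, which keeps class II molecules on the surface of dendritic cells, rose by 1.94 on the log2 scale (standard error 0.29, edgeR adjusted p = 0.00292), and *Ctss*, the protease that trims the invariant chain, rose by 1.31 (standard error 0.21, edgeR adjusted p = 0.00407). Of 8 other costimulatory genes, 5 were tested and 2 were called higher. These were *Icosl*, the ligand of ICOS on T cells, with a log2 fold change of 1.99 (edgeR adjusted p = 0.00926), and *Cd28*, the receptor of CD86, with 1.89 (edgeR adjusted p = 0.0105). *Cd274*, the ligand of PD-1, had 0.85 (edgeR adjusted p = 0.00946).

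Neither the interferon gamma signal nor class I presentation had a called gene in female KO mice. Of 9 genes of the interferon gamma signal, which induces *Ciita* in many cells, edgeR called 0 of 8 tested, with 4 at an unadjusted p under 0.05 and a median log2 fold change of 0.28. All 8 log2 fold changes were above 0. The receptor chain *Ifngr1* had a log2 fold change of 0.55 (edgeR adjusted p = 0.00973), the guanylate-binding protein *Gbp2* 0.80 (edgeR adjusted p = 0.0168) and the kinase *Jak2* 0.42 (edgeR adjusted p = 0.0275). These genes passed the limit on the adjusted p and fell short of the fold threshold only. *Ifng* itself had 0 to 4 counts per mouse. Of 13 class I genes, edgeR called 0 of 13, with 2 at an unadjusted p under 0.05 and a median of 0.24. *Nlrc5*, the class I counterpart of CIITA, had a log2 fold change of 0.68 (edgeR adjusted p = 0.00914), also short of the fold threshold only. *Tapbp*, which aids peptide loading, had 0.28 (edgeR adjusted p = 0.149) and the class I heavy chain *H2-D1* 0.24 (edgeR adjusted p = 0.202).

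Some markers of the cells that carry class II molecules were also called higher in these mice. All 5 leukocyte markers were called higher, with a median log2 fold change of 1.14, among them *Ptprc* at 1.32, *Laptm5* at 1.14 and *Cd53* at 1.10 (edgeR adjusted p = 0.00219, 0.00230 and 0.00440). Their summed level was 44.6 to 54.9 CPM in female WT mice and 78.3 to 135 CPM in female KO mice on chow, with KO replicate 4 lowest. Of 11 dendritic cell markers tested of 12 listed, 6 were called higher, led by *Itgax* at 3.11, *Siglech* at 1.61 and *Flt3* at 2.12 (edgeR adjusted p = 0.00165, 0.0118 and 0.0127). The dendritic sum was 15.3 to 17.9 CPM in WT and 22.2 to 37.1 CPM in KO mice.

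Among the other cell types that can carry class II molecules, 3 of 12 macrophage markers were called higher, with *Adgre1* at a log2 fold change of 1.10, *Cd68* at 1.25 and *Csf1r* at 0.84 (edgeR adjusted p = 0.00144, 0.00226 and 0.00409, the last short of the fold threshold). The macrophage sum was 502 to 597 CPM in WT and 724 to 1017 CPM in KO mice. Of 10 B cell markers 1 was called higher, *Cr2* at 1.57 (edgeR adjusted p = 0.0265), while *Ighm* had 1.09 and *Pax5* 1.02 (edgeR adjusted p = 0.0870 and 0.188), and the sum was 6.49 to 11.1 CPM against 8.37 to 22.6 CPM. Of 6 monocyte markers tested of 7 listed, 4 were called higher, with *Ccr2* at 2.37 and *Cx3cr1* at 2.81 (edgeR adjusted p = 0.00230 and 0.00292), beside *Plac8* at 0.94 (edgeR adjusted p = 0.00809). The monocyte sum, nearly all of it *Fn1*, was 1815 to 2822 CPM against 2265 to 2482 CPM. No marker of these cell types was at 0 in all 32 mice, and the part of these cells in the class II result was not tested.

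Of 8 T cell markers tested of 9 listed, 1 was called higher, *Cd8a* at a log2 fold change of 2.34 (edgeR adjusted p = 0.00851), beside *Cd4* at 1.02 and *Cd3g* at 0.75 (edgeR adjusted p = 0.0549 and 0.195), and their sum was 2.48 to 4.96 CPM in WT and 3.48 to 7.24 CPM in KO mice. Cholangiocyte markers, 4 of 7 called higher, were led by *Spp1* at 2.40, *Krt19* at 1.55 and *Epcam* at 1.76 (edgeR adjusted p = 0.00198, 0.00617 and 0.00907), with sums of 56.4 to 87.0 against 152 to 309 CPM. For the sinusoidal endothelium edgeR called 0 of 6 markers, with 0 at an unadjusted p under 0.05. *Kdr* was at -0.25, *Stab2* at -0.20 and *Oit3* at -0.19 (edgeR adjusted p = 0.209, 0.315 and 0.440), and the sums were 279 to 333 against 231 to 321 CPM. Of 8 hepatocyte markers 1 was called lower, the apolipoprotein *Apoa1* at -1.048 (edgeR adjusted p = 0.0179), where 1.01% of all genes tested were called lower. *Alb* was at -0.82 and *Cps1* at 0.53 (edgeR adjusted p = 0.0125 and 0.0210), and the hepatocyte sums were 95265 to 124241 against 59230 to 83986 CPM.

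**Figure D3:**
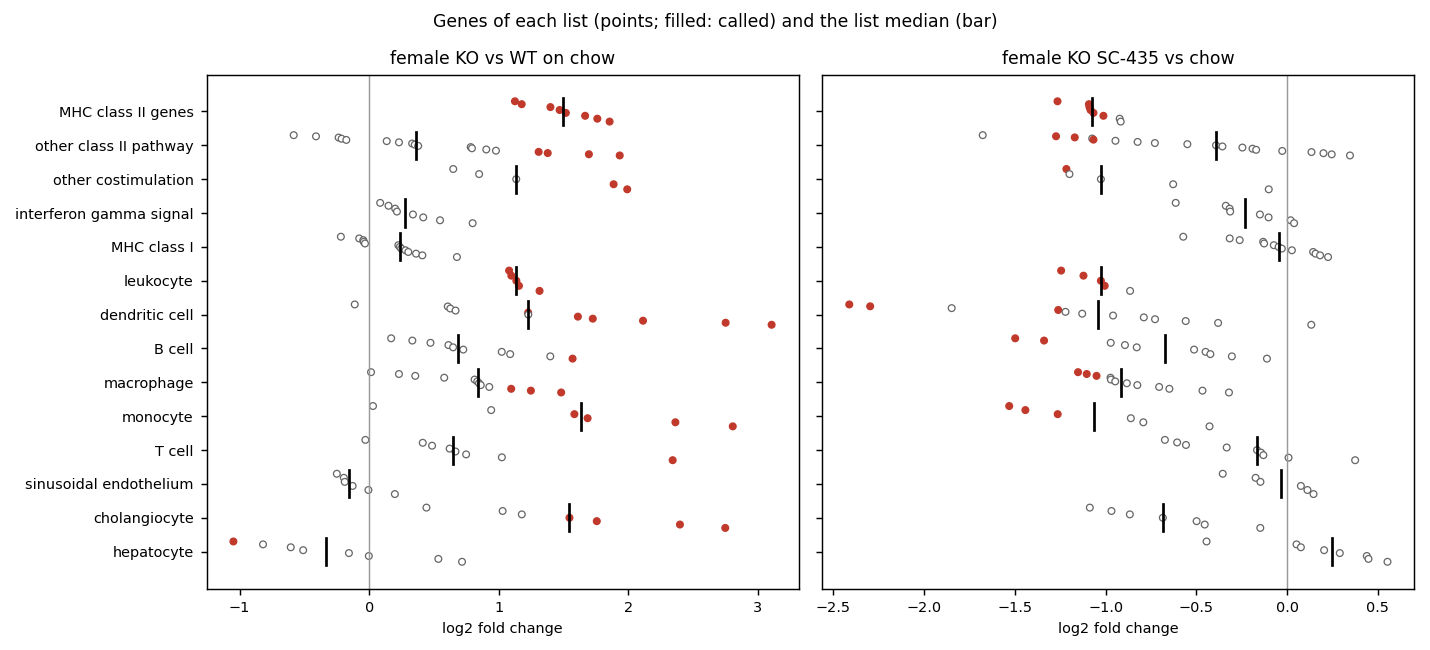
The log2 fold change (horizontal axis) of every tested gene in 14 lists in female KO vs WT mice on chow and in female KO mice fed SC-435 vs chow. Points are genes, filled red where called, and black bars are list medians. The medians of the class II list are 1.495 and -1.075, those of the leukocyte markers 1.14 and -1.03, and those of the class I list 0.24 and -0.05.

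With SC-435, the class II genes were lower in the livers of female KO mice than on chow, by 0.92 to 1.27 on the log2 scale. Of the 8 genes 6 were called lower, where 3.70% of all 16332 genes tested were, and with the adjusted p alone and no fold threshold 8 of 8 were, beside 9.23% of all genes. The median log2 fold change was -1.075 beside -0.02 over all genes tested. *Cd86* was the 1 gene of the 8 whose SC-435 mice all lay below the chow mice, as was the case for 10.0% of all genes tested. For the other 7, 3 of the 4 SC-435 mice lay below every chow mouse, and SC-435 replicate 4, the highest of its group for all 8 genes, lay above chow replicate 4.

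*Ciita* was at 1.90, 3.07, 2.29 and 4.38 CPM in female KO replicates 1 to 4 fed SC-435, where the same genotype on chow was at 3.77 to 8.82 CPM. The log2 fold change of *Ciita* was -1.27 (standard error 0.31, edgeR adjusted p = 0.0210). *H2-Aa* was at 28.7, 36.9, 32.5 and 63.4 CPM, a log2 fold change of -1.07 (standard error 0.30, edgeR adjusted p = 0.0352). The level of replicate 4 was well above those of the other 3 mice.

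*H2-Ab1* was at 31.99, 40.2, 35.4 and 66.4 CPM with SC-435, a log2 fold change of -1.09 (standard error 0.28, edgeR adjusted p = 0.0269). *H2-Eb1* was at 27.5, 39.2, 32.1 and 65.3 CPM, a log2 fold change of -1.08 (standard error 0.31, edgeR adjusted p = 0.0381). *Cd74* was at 90.4, 118, 99.9 and 196 CPM, a log2 fold change of -1.01 (standard error 0.31, edgeR adjusted p = 0.0466) that lay just past both thresholds. In these 3 genes, too, replicate 4 stood above the other SC-435 mice.

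*H2-DMb1* was at 3.64, 3.21, 3.24 and 6.70 CPM with SC-435, a log2 fold change of -1.09 (standard error 0.29, edgeR adjusted p = 0.0271). *H2-DMa* was at 3.90, 3.95, 3.94 and 6.27 CPM, and its log2 fold change of -0.92 (standard error 0.23, edgeR adjusted p = 0.0221) fell short of the fold threshold. *Cd86* was at 2.86, 3.09, 2.75 and 4.52 CPM, also short of it at -0.92 (standard error 0.19, edgeR adjusted p = 0.0102). All 4 of its SC-435 mice were below the 5.03 CPM of the lowest chow mouse.

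The count of 6 rested on single mice. It was 0 when SC-435 replicate 1, 2 or 3, or replicate 2 on chow, was left out, 1 without chow replicate 3 and 3 without chow replicate 1, and it was 7 without chow replicate 4 and 8 without SC-435 replicate 4. The direction was the same in each, and the log2 fold changes lay between -1.53 and -0.80. Over all genes tested 948 were called with all mice, 583 without chow replicate 2 and 1505 without chow replicate 4.

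**Figure D4:**
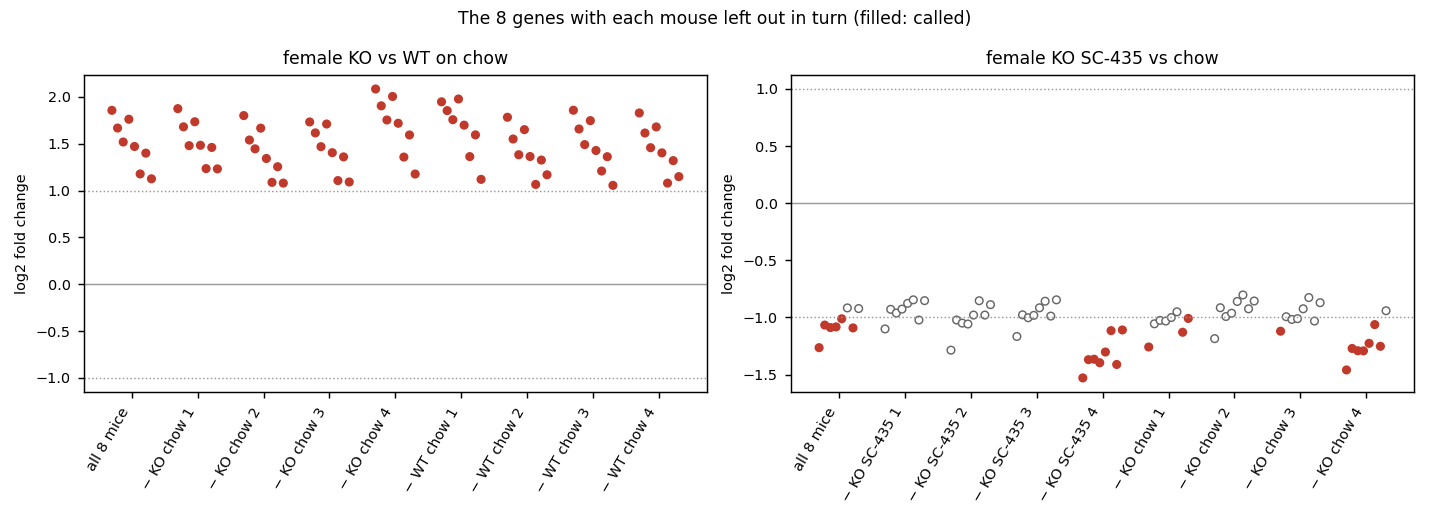
The log2 fold changes (vertical axis) of the 8 genes with all 8 mice and with each mouse left out in turn, in female KO vs WT mice on chow (left) and in female KO mice fed SC-435 vs chow (right). Each group of 8 points is 1 fit, with the genes in the order *Ciita*, *H2-Aa*, *H2-Ab1*, *H2-Eb1*, *Cd74*, *H2-DMa*, *H2-DMb1* and *Cd86*, and filled red points were called. On the left all 8 genes are called in every fit, and on the right between 0 and 8 are.

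Some genes of the other lists were also called lower in the SC-435 mice. Of 19 other class II pathway genes tested, 3 were called lower, *Cd83* at -1.17, *Ctss* at -1.07 and *H2-DMb2* at -1.27 on the log2 scale (edgeR adjusted p = 0.0203, 0.0166 and 0.0377), with a list median of -0.39. Of the costimulatory genes 1 of 5 was called lower, *Cd80*, the close relative of CD86, at -1.22 (edgeR adjusted p = 0.0182). EdgeR called 0 of 8 interferon gamma genes, with 2 at an unadjusted p under 0.05 and a median of -0.23, and 0 of 13 class I genes, with 3 at an unadjusted p under 0.05 and a median of -0.05. Of the cell markers, 4 of 5 for leukocytes were called lower, 3 of 12 for dendritic cells, 2 of 10 for B cells, 3 of 12 for macrophages and 3 of 6 for monocytes. EdgeR called 0 of 9 T cell, 0 of 6 sinusoidal, 0 of 7 cholangiocyte and 0 of 8 hepatocyte markers, with 0, 0, 2 and 4 at an unadjusted p under 0.05. The leukocyte sum was 44.0 to 67.3 CPM with SC-435, highest in replicate 4, and its part in the class II result was not tested.

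Female KO mice fed SC-435 were compared with female WT mice on chow to see how far the levels lay apart after treatment. EdgeR called 0 of 8 genes, where 3.93% of 15881 genes tested were called in either direction, and DESeq2 and voom also called 0. All 8 log2 fold changes were above 0, from 0.21 to 0.68, with 3 at an unadjusted p under 0.05. These were *H2-Eb1* at 0.68 (standard error 0.26, edgeR adjusted p = 0.104), *H2-Aa* at 0.61 (standard error 0.25, edgeR adjusted p = 0.119) and *Ciita* at 0.60 (standard error 0.25, edgeR adjusted p = 0.134). The median of the 8 genes was 0.45 beside -0.0007 over all genes tested. This comparison shares its WT group with the comparison of genotypes on chow and its KO group with that of the diets.

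In female WT mice SC-435 changed none of the 8 genes past the thresholds. EdgeR, DESeq2 and voom each called 0 of 8 where 1.10% of all genes tested were called in either direction by edgeR, and 0 had an unadjusted p under 0.05. The log2 fold changes ran from -0.27 for *H2-Ab1* to 0.19 for *Cd86*. The difference between the effects of SC-435 in female KO and WT mice was tested as an interaction, called on the adjusted p alone, at the same limit of 0.05. All 8 terms were below 0, with a median of -0.89 beside -0.01 over all genes tested, and 1 gene was called, where 1.78% of all genes tested were called lower. That gene was *Cd86*, with -1.12 (standard error 0.24, edgeR adjusted p = 0.0278), followed by *Ciita* with -1.22 (standard error 0.37, edgeR adjusted p = 0.0867). For *Cd86* the 4 female WT mice fed SC-435 were at 3.70, 3.59, 3.26 and 2.61 CPM, overlapping the WT mice on chow. Of the macrophage markers 7 of 12 were called lower in the same interaction, and their part in the term of *Cd86* was not tested.

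The call of *Cd86* in that interaction did not hold in 9 of the 16 fits that left out 1 mouse. These were the fits that left out replicate 1, 2 or 3 of the KO mice fed SC-435, replicate 2 or 3 of the KO mice on chow, replicate 1, 2 or 3 of the WT mice fed SC-435, or replicate 3 of the WT mice on chow, in which its adjusted p was between 0.0529 and 0.0707 (edgeR). Its term stayed between -1.31 and -1.04 in all 16. The count of called genes was 4 without KO chow replicate 4 and 3 without KO SC-435 replicate 4. Over all genes tested 445 were called with all mice, and 1644 without KO chow replicate 4.

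In male mice on chow the class II genes spread widely within each genotype, and no gene passed the thresholds between KO and WT mice. EdgeR, DESeq2 and voom each called 0 of 8, where edgeR called 1.05% of 15862 genes tested in either direction, and 1 gene had an unadjusted p under 0.05. All 8 log2 fold changes were above 0, with a median of 0.63 beside 0.04 over all genes tested. The largest were those of *Ciita* at 1.44 (standard error 0.66, edgeR adjusted p = 0.340) and *Cd86* at 1.21 (standard error 0.52, edgeR adjusted p = 0.308). The smallest was that of *H2-DMa* at 0.22 (standard error 0.65, edgeR adjusted p = 0.894).

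*Ciita* was at 2.77, 1.62, 1.75 and 4.97 CPM in male WT replicates 1 to 4 and at 3.23, 2.60, 5.48 and 17.5 CPM in male KO replicates 1 to 4 on chow. KO replicate 4 alone carried much of the mean, and it was the highest KO mouse for all 8 genes. *H2-Ab1* was at 114, 22.1, 20.9 and 66.1 CPM in WT and at 49.0, 38.3, 75.2 and 109 CPM in KO mice. WT replicate 1 was above every KO mouse there, and it was the highest WT mouse for 6 of the 8 genes. *Cd86* was at 0.683, 1.29, 2.48 and 3.79 CPM in WT and at 2.76, 4.21, 4.63 and 6.90 CPM in KO mice. For this gene WT replicate 1 was instead the lowest. It was also lowest for the leukocyte marker *Ptprc*, at 0.607 CPM against 7.23 to 12.6 CPM in the other 3 WT mice. The summed leukocyte markers went the other way, with WT replicate 1 highest at 55.6 CPM against 33.5, 31.7 and 53.3 CPM in WT replicates 2 to 4.

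Both mice moved the result. Without WT replicate 1 the log2 fold changes were 0.91 to 1.42 with 0 of 8 called (edgeR adjusted p = 0.196 to 0.341), and without KO replicate 4 they were -0.42 to 0.92 with 0 of 8 called. Male KO replicate 4 also had the highest leukocyte sum of the 32 mice, 181 CPM against 49.9 to 82.1 CPM in the other 3, and a cholangiocyte sum of 1172 CPM against 166 to 497 CPM. Of the marker lists, 4 of 7 cholangiocyte and 1 of 6 monocyte markers were called higher in male KO mice, where 0.914% of all genes tested were. EdgeR called 0 genes of the other lists. The part of these markers in the class II values was not tested.

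**Figure D5:**
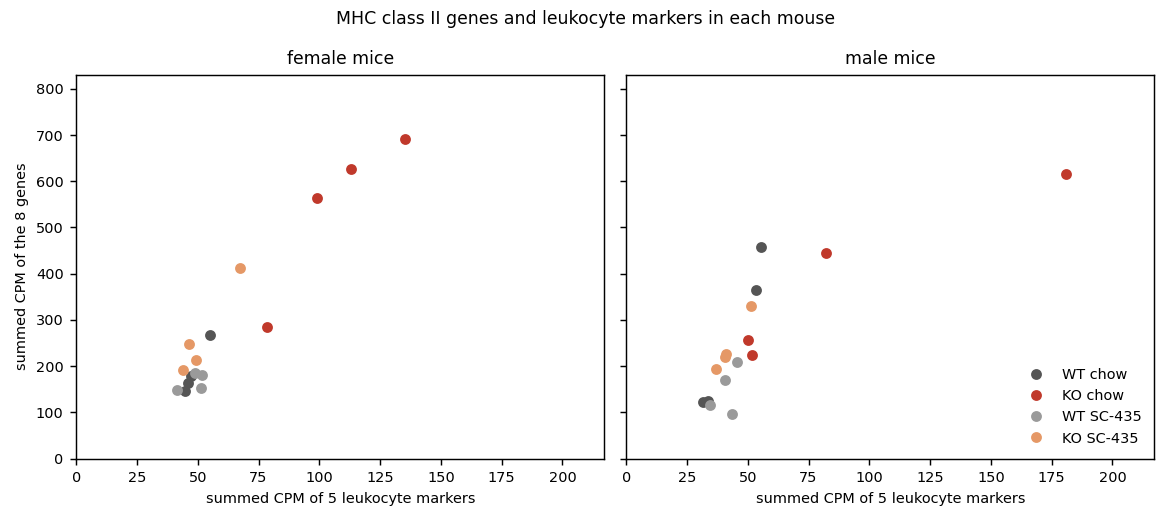
Summed CPM of the 8 class II genes (vertical axis) against summed CPM of 5 leukocyte markers (horizontal axis) in each of the 16 female (left) and 16 male mice (right), coloured by genotype and diet. The KO mice on chow reach the highest sums in both sexes, up to 692 CPM of class II genes in females and 615 CPM in males. Female KO replicate 4 on chow, at 285 and 78.3 CPM, and KO replicate 4 fed SC-435, at 412 and 67.3 CPM, lie between the other 3 mice of each of these 2 groups.

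In male KO mice SC-435 lowered no class II gene past the thresholds either. EdgeR called 0 of 8, where it called 6.45% of 15984 genes tested in either direction, with 3 at an unadjusted p under 0.05, while DESeq2 called 1, *Ciita*, and voom 0. All 8 log2 fold changes were below 0, from -1.44 to -0.60, with a median of -0.71 beside -0.03 over all genes tested. *Ciita* was at 2.61, 2.84, 2.07 and 3.46 CPM with SC-435, a log2 fold change of -1.44 (standard error 0.57, edgeR adjusted p = 0.102). *H2-Aa* was at 32.9, 34.8, 30.0 and 51.8 CPM, a log2 fold change of -0.73 (standard error 0.32, edgeR adjusted p = 0.136). For both, SC-435 replicate 4 was the highest mouse of its group, as it was for all 8 genes, and the groups overlapped. Without KO chow replicate 4 the log2 fold changes were -0.49 to 0.0052 with 0 of 8 called, and without KO chow replicate 2 the 1 gene called was *Ciita* (edgeR adjusted p = 0.0499). In the same comparison 4 of 7 cholangiocyte and 4 of 6 monocyte markers were called lower, where 4.57% of all genes tested were.

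The remaining male comparisons also had no called class II gene. In male WT mice fed SC-435 edgeR, DESeq2 and voom called 0 of 8, beside 0.0394% of all genes by edgeR in either direction, with 0 at an unadjusted p under 0.05. The log2 fold changes were -1.16 to -0.71 for 7 genes and 0.29 for *Cd86*, and without WT chow replicate 1 they were -0.85 to 0.01. Male KO mice fed SC-435 and male WT mice on chow gave 0 of 8 by all 3 tools, beside 0.208% of all genes, with 0 at an unadjusted p under 0.05 and log2 fold changes of -0.41 to 0.48, or -0.03 to 0.31 without WT chow replicate 1. With voom they were 0.39 to 0.79. The interaction of genotype and SC-435 in males gave 0 of 8 by all 3 tools, beside 0.0906% of all genes, with 0 at an unadjusted p under 0.05. Its terms were -1.01 to 0.44, and -0.75 to -0.17 without WT chow replicate 1.

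The sexes did not differ past the thresholds in any of the 8 genes. Female and male WT mice on chow gave 0 of 8 by edgeR, DESeq2 and voom, beside 1.40% of all genes by edgeR, with 0 at an unadjusted p under 0.05. The log2 fold changes were -0.82 to 0.45, and -0.54 to 0.18 without male WT chow replicate 1. The difference between the sexes in the effect of genotype on chow, tested as an interaction on 16 mice, was called for 0 of 8 genes by the same 3 tools, beside 0.0235% of 17026 genes, with 0 at an unadjusted p under 0.05. The terms were larger in females for 7 genes, from 0.47 for *Ciita* to 1.25 for *H2-Ab1* and *H2-Eb1*, and -0.04 for *Cd86*, with standard errors of 0.53 to 0.74. Without male WT chow replicate 1 they were 0.24 to 0.76. The difference between the sexes in the effect of SC-435 in KO mice was called for 0 of 8 genes by the 3 tools, beside 0.211% of all genes, with 0 at an unadjusted p under 0.05 and terms of -0.43 to 0.14. So the calls in females and their absence in males are not shown to differ.

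Among themselves, 7 of the 8 genes rose and fell together from mouse to mouse. Over 32 mice the correlation of log2 CPM between a gene and the mean of the other 7 members was 0.902 to 0.984 for 7 genes, and 0.873 to 0.974 after each group's mean was taken off. *Cd86* stood apart with 0.507, and 0.238 within groups. Male WT chow replicate 1 was the highest mouse of its group for 6 of the 8 genes and the lowest for *Cd86*. The correlations were not computed without it. Of the protein-coding genes outside the 8, those most like the mean of the members over the 32 mice were *Selplg*, *Itgb2*, *Cxcl16*, *Coro1a*, *Cd52*, *Lsp1*, *Myo1f* and *Lpcat2*, with Pearson correlations of 0.901 to 0.918 and Spearman correlations of 0.812 to 0.909. Within groups the Pearson correlations were between 0.814 and 0.876. *Coro1a* and *Cd52* are also in the list of leukocyte markers, and all these points share the libraries and their scaling, so the correlations are a description.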

How the data were processed

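Poly(A)-selected liver libraries of 32 mice, 4 per sex, genotype and diet, were sequenced on an Illumina instrument. The authors deposited raw read counts per gene. The submitters' processing notes name HISAT2 2.0.5, featureCounts 1.5.0-p3, DESeq2 1.20.0 and mm10, while the annotation release and strand setting are not given in the sources used here, so reads of a gene and an overlapping antisense gene cannot be told apart. The deposited FPKM values and the authors' DESeq2 fold changes and p values were not used. The labels start the diet 3 weeks after weaning, while the study's methods describe a switch at weaning.

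Each pair of groups was fitted on its 8 libraries with edgeR 4.0.16 in R 4.3.3 (filterByExpr, TMM, quasi-likelihood test, Benjamini-Hochberg adjustment over all genes tested) and interactions on 16. The standard error is the log2 fold change divided by the square root of F. The scripts were tested on simulated counts. CPM and RPKM were computed with TMM factors over all 32 libraries. The alternatives tried were DESeq2 1.42.0, voom with quality weights (limma 3.58.1), scaling by library size alone, median-of-ratios size factors, no filter on low counts, a mean of at least 50 counts, no fold threshold, the 4 groups of 1 sex in 1 fit, the replicate number as a block, and each mouse left out.

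Named were the 8 members, the 3 genes of each other list with the smallest adjusted p between female KO and WT mice on chow, and the 8 genes most like the members. *H2-DMb2*, *Cd80*, *Ifng* and *Fn1* were named after their values were seen. The members and lists were chosen with earlier results of these data known. Symbols that a spreadsheet had turned into dates were restored by gene ID for 27 rows. Promoter windows are RefSeq's (GRCm38.p6). Lowest chi-square per gene between 2 libraries of a group was 20.3, so each was taken as a separate mouse.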

Additional observations from a re-analysis of the deposited data

Results flagged for a closer look

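In 3 of the 64 sets of 4 mice, 8 genes in 8 groups, 1 mouse lay far from the other 3 by Dixon's test at the 95% level, which chance gives in about 1 group in 20. *H2-Ab1* in female KO replicate 4 on chow was at 48.9 CPM, with the other 3 mice at 102 to 110 CPM. *H2-DMa* in female KO replicate 4 fed SC-435 was at 6.27 CPM, with the others at 3.90 to 3.95 CPM, and *H2-DMb1* in the same mouse was at 6.70 CPM, with the others at 3.21 to 3.64 CPM. Of the 8 genes, *Cd86* alone was called in the female interaction of genotype and SC-435. Its term was -1.12 on the log2 scale (standard error 0.24, edgeR adjusted p = 0.0278). All 8 terms were below 0, and the call of *Cd86* held in 7 of the 16 fits that left out 1 mouse.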

How the results depend on the processing

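The count of 8 genes called higher in female KO mice on chow was the same under all 9 alternative settings and all 8 fits without 1 mouse. The count of 6 called lower with SC-435 in female KO mice was 0 with the replicate block and 0 to 8 with 1 mouse left out. Over all genes the number called there was 948 and ran from 583 to 1505 with 1 mouse left out. In male KO mice fed SC-435 the count of 0 became 1 with DESeq2, and was 0 to 1 with 1 mouse left out. Over all genes 1031 were called there, and 1351 with DESeq2. In the female interaction the count of 1 became 2 with library size only, 2 with DESeq2, 8 with voom and 0 with the replicate block, and was 0 to 4 with 1 mouse left out. Over all genes 445 were called in that interaction, 1709 with voom and 215 with the replicate block. With 1 mouse left out the number over all genes ran from 68 to 1644. The cause was not tested. The other 9 comparisons of the design kept their count of 0 under all alternatives.

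No member changed direction under any alternative in the female comparisons of KO with WT mice on chow and of SC-435 with chow in KO mice, or in the female interaction. In the comparisons with no called gene directions did turn. With voom, 3 genes turned in male WT mice fed SC-435 and 6 between female and male WT mice, and without female WT chow replicate 1 the log2 fold changes in female WT mice fed SC-435 were -0.04 to 0.19. Of 136 fits of a gene between male KO mice fed SC-435 and male WT mice on chow 28 turned, and of 184 in the male interaction 38 did. On chow, comparing genotypes in males, *H2-Ab1* ran from -0.038 to 0.94, negative without KO replicate 4, and *H2-DMa* from -0.42 to 0.91, negative without KO replicate 4 (-0.42), WT replicate 2 (-0.02) or WT replicate 3 (-0.06). With SC-435 in male KO mice *H2-DMa* ran from -0.84 to 0.0052, the last without KO chow replicate 4. Same-numbered mice did not deviate together (correlations between -0.148 and 0.333, not over 0.1 in every pair), so the block result is given only here. Scaling by library size alone moved the median of all genes by 0.19 in female and 0.25 in male KO against WT mice and by -0.16 and -0.20 with SC-435, and relative to that shift the members lay at 1.12 to 1.87, 0.47 to 1.54, -1.27 to -0.92 and -1.53 to -0.67. Over all genes, the number called between female KO and WT mice on chow was 1082 and ran from 773 to 1537 over the settings that keep the fold threshold, and between male KO and WT mice it was 166 and ran from 17 to 954.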
